A study of Mus musculus with 9 samples.

Results

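The MHC class II presentation genes described here were H2-Aa, H2-Ab1, H2-Eb1, H2-DMa, H2-DMb1, Cd74 and Ciita, found by their symbols as 7 of the 14912 rows of a deposited table of normalized counts. They were selected on values of these same libraries: the level of H2-Ab1 in the TGFβ-iTreg and day 0 groups, and its high value in day 0 replicate 3, had been seen before the genes were chosen. Their values are therefore given as a description: no p-value is given for them, and how many passed the threshold of the fit across all genes is counted once, with nothing read from it. The libraries were bulk RNA of mouse CD4+ T cells made by a modified CEL-Seq method, which reads the 3' ends of polyadenylated RNA, with 3 libraries in each of 3 groups.

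All animals were of the strain B6.Cg-Foxp3tm2(EGFP)Tch/J and labelled hemizygous for the Foxp3tm2Tch allele, in which eGFP reports Foxp3, the factor that marks regulatory T cells. The mTO-iTreg group was eGFP-positive CD4+ cells from day 5 of co-culture with murine CRC tumour organoids. Their medium held IL-2 at 20 U/ml with anti-CD3 and anti-CD28 antibodies, each at 1 µg/ml. The TGFβ-iTreg group was also eGFP-positive and from day 5, cultured without organoids in TGFβ at 10 ng/ml, IL-2 at 300 U/ml and those antibodies. The day 0 group was CD4+ T cells without eGFP, collected before any culture. The induced groups differed in organoids, TGFβ and IL-2 dose at once, and the mTO-iTreg libraries carry another form of library code than the rest, so these cannot be told apart. The labels do not say whether replicates came from separate animals or cultures, so p-values measure the spread between these samples, which may be technical.

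MHC class II molecules are αβ pairs that show peptides from the endosome to CD4+ T cells. H2-Aa and H2-Ab1 encode the α and β chains of I-A, and H2-Eb1 the β chain of I-E. The invariant chain, encoded by Cd74, fills the peptide groove until the endosome, where H2-DM (H2-DMa with H2-DMb1 or H2-DMb2) exchanges its remnant for peptide, and H2-O (H2-Oa with H2-Ob) restrains H2-DM. The coactivator CIITA, encoded by Ciita, switches these genes on together through factors bound at the X and Y boxes of their promoters. Dendritic cells, B cells and macrophages are the usual sources of class II, and mouse T cells are generally held to make little of it. Mice of the H2-b haplotype, to which C57BL/6 belongs, do not transcribe the I-E α gene, so H2-Eb1 RNA in them does not give I-E at the surface.

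Promoters were read to show what these genes share beside their expression. Of 11 class II genes looked for in the RefSeq promoter table (GRCm38, 250 bases before to 50 after each start), 8 were matched, among them the members H2-Aa, H2-Eb1, H2-DMa and H2-DMb1. The letters searched on both strands were GCAAC from the X box, which RFX binds, and ATTGG, the CCAAT of the Y box read on the other strand, which NF-Y binds. They were chosen with these promoters in view. The pair, with 10 to 35 bases between them on 1 strand, was present in 1.22% of 32851 promoters, while GCAAC alone was present in 35.2% and ATTGG alone in 37.4%. H2-Aa and H2-Eb1 held the pair, as did the non-members H2-Oa, H2-Ob and H2-Eb2. H2-DMb1 held ATTGG after GTAAC, and the wider pattern GNAAC with ATTGG, which includes the first, was present in 4.19% of promoters. Neither start site of H2-DMa held either pattern, nor did that of H2-DMb2. The X letters began 76 to 132 bases before the start site, with 25 to 28 bases between the pair. The windows below are on the gene's own strand, 5′ to 3′, with both motifs in capitals, and lie at chr17:34287861-34287912 (H2-Aa, minus strand), chr17:34305768-34305818 (H2-Eb1, plus), chr17:34153089-34153140 (H2-DMb1, plus), chr17:34092295-34092346 (H2-Oa, plus), chr17:34238810-34238858 (H2-Ob, plus) and chr17:34325535-34325585 (H2-Eb2, plus). A match describes letters only, and the absence of one says only that these letters are not in the window.
H2-Aa: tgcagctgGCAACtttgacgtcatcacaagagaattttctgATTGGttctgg
H2-Eb1: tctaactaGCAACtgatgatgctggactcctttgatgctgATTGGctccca
H2-DMb1: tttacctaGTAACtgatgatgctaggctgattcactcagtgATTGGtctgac
H2-Oa: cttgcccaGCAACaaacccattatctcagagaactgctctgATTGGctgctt
H2-Ob: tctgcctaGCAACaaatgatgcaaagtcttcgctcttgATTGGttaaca
H2-Eb2: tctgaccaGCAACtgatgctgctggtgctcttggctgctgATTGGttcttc

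Depth was 7551177 to 7969853 counts in the mTO-iTreg libraries, 2078223 to 9944952 in the TGFβ-iTreg libraries and 2267922 to 5328169 in the day 0 libraries, and 1 count was worth 0.494 to 2.69 normalized counts. A library stood apart in the genes studied. In day 0 replicate 3 the 7 genes summed to 7469 normalized counts, against 1653 and 879 in day 0 replicates 1 and 2, and each of the 7 was at its day 0 maximum there. It was also the deepest day 0 library, and the share of all rows at their day 0 maximum in it is not given here. Some markers of other cells, but not all of those listed below, were also high in that library. Itgax, the integrin CD11c of dendritic cells, had 66.5 normalized counts there, against 1.75 and 0 in replicates 1 and 2. Xist, made from the inactive X chromosome of female cells, had 314, 398 and 401 normalized counts in mTO-iTreg replicates 1 to 3, 0, 2.71 and 70.6 in TGFβ-iTreg replicates 1 to 3, and 3.51, 0 and 212 in day 0 replicates 1 to 3. It rose in mTO-iTreg cells by 5.85 ± 1.65 (log2, ± SE) over TGFβ-iTreg cells (adjusted p = 0.018) and by 5.23 ± 1.65 over day 0 cells (adjusted p = 0.025). The first call ended without mTO-iTreg replicate 2 or 3 or TGFβ-iTreg replicate 1 or 2 (adjusted p up to 0.081), and the other without any 1 mTO-iTreg replicate, without day 0 replicate 1 or 2, or without TGFβ-iTreg replicate 1 and day 0 replicate 2, the shallowest of their groups (up to 0.11). All libraries were labelled hemizygous for an allele of Foxp3, an X-linked gene, and the sex of the animals is not given in the sources used here, so a difference in sex between the groups cannot be told apart from the culture. For the fitted members, log2 changes against day 0 are given with and without day 0 replicate 3. For most other genes they are given with all libraries only. The part of other cells in these results was not tested. In bulk RNA, fewer cells of a type and less RNA per cell cannot be told apart.

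The 7 genes did not move as a block, and 3 patterns could be read from the plot of the genes by library. The first was H2-DMa, lowest on day 0, higher in TGFβ-iTreg cells and highest in mTO-iTreg cells. The next was H2-Eb1 and H2-DMb1, high in mTO-iTreg cells and in day 0 replicate 3. The third was H2-Aa and H2-Ab1, whose highest group means were on day 0, although the mTO-iTreg libraries overlapped day 0 in H2-Ab1. Between the induced groups, H2-Ab1, H2-Eb1, H2-DMa and H2-DMb1 were higher in every mTO-iTreg library than in any TGFβ-iTreg library, while H2-Aa and Ciita overlapped. Cd74 was also higher in every mTO-iTreg library, but its closest libraries differed by less than the worth of 1 count. The share of all rows whose induced groups did not overlap is not given here, so nothing is read from such separation. Of the 6 members with enough signal to be fitted, 4 were called higher in mTO-iTreg than in TGFβ-iTreg cells (adjusted p under 0.05) and the other two were not called, where 14.9% of all 10983 rows tested were called higher and 11.8% lower. Their median log2 change was 1.78, and that of all rows tested was 0.13. Between mTO-iTreg and day 0 cells, 3 members were called higher and 2 lower, where 19.4% of rows were called higher and 14.5% lower. The median was 0.53 for the members and 0.09 for all rows. Between TGFβ-iTreg and day 0 cells, 1 member was called higher and 3 lower, where 9.78% of rows were called higher and 8.8% lower. The median was -2.12 for the members and -0.02 for all rows. The genes had been chosen on such values, so nothing is read from these counts, and the comparisons against day 0 share the day 0 libraries.

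**Figure D1:**
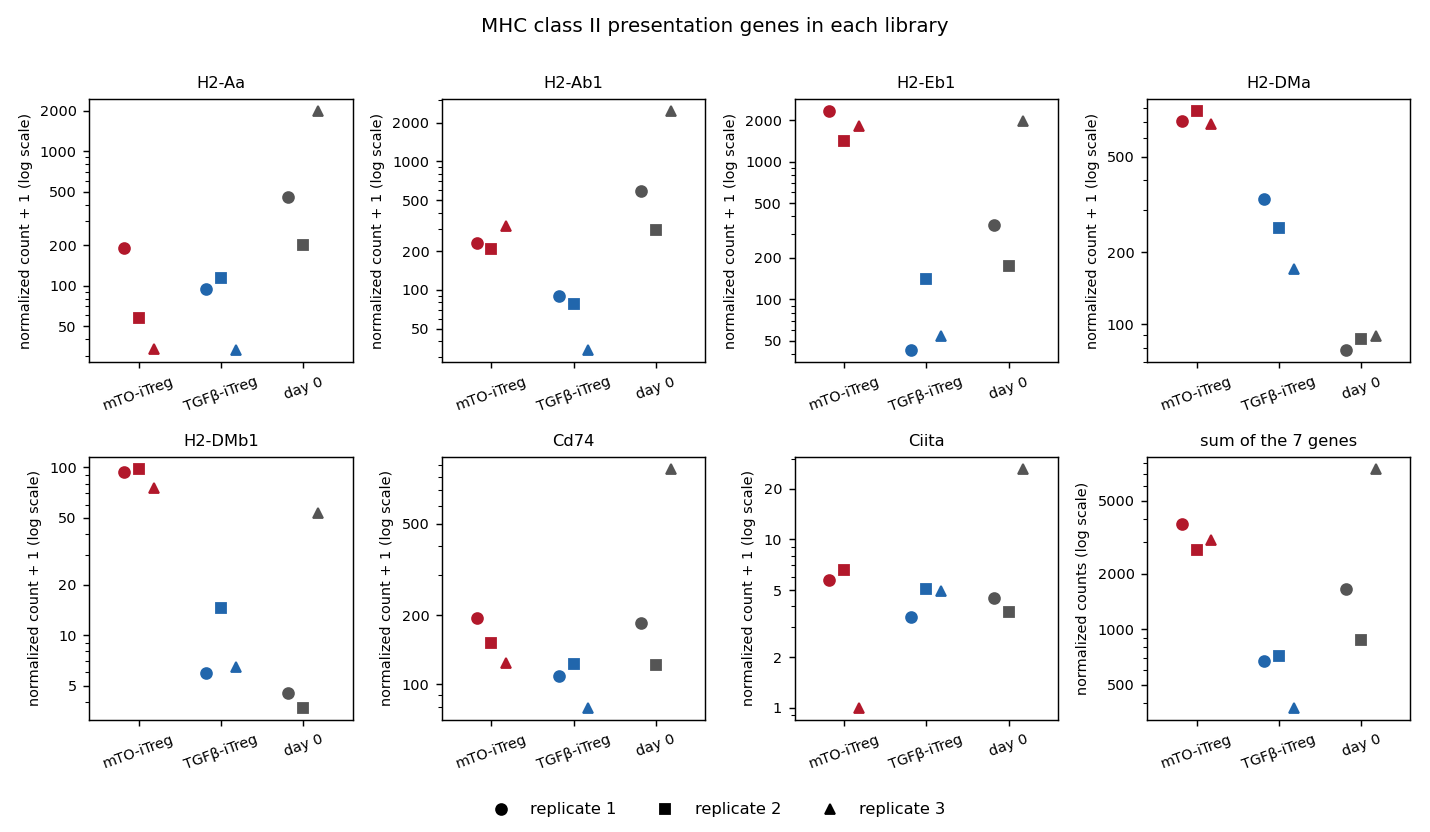
Normalized counts plus 1 (log scale) of each of the 7 class II presentation genes, and their sum without the added 1, in the 9 libraries. Each point is 1 library and its shape is the replicate number. H2-Ab1, H2-Eb1, H2-DMa and H2-DMb1 were higher in all 3 mTO-iTreg libraries than in any TGFβ-iTreg library, and day 0 replicate 3 lay above the other day 0 libraries in every panel, by little in that of H2-DMa.

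H2-Eb1, the β chain of I-E (chr17:34305867-34316674, plus strand), had 2331, 1410 and 1817 normalized counts in mTO-iTreg replicates 1 to 3, 41.8, 140 and 53.4 in TGFβ-iTreg replicates 1 to 3, and 344, 175 and 1985 in day 0 replicates 1 to 3. Every mTO-iTreg library lay above every TGFβ-iTreg library and above day 0 replicates 1 and 2, while day 0 replicate 3 lay inside the mTO-iTreg range. The fitted log2 change was 4.72 ± 0.66 (SE) for mTO-iTreg over TGFβ-iTreg cells, with a range of 4.38 to 5.23 over 20 alternatives. It was 1.88 ± 0.66 for mTO-iTreg over day 0 cells. That value became 2.88 without day 0 replicate 3 and 1.13 without day 0 replicate 2. For TGFβ-iTreg over day 0 cells the change was -2.84 ± 0.66, and -1.84 without day 0 replicate 3. An antisense gene without a row of its own, Gm20513, overlaps H2-Eb1, and the handling of strand is not given in the sources used here.

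H2-Ab1, the β chain of I-A (chr17:34257689-34269419, plus strand), had 229, 208 and 313 normalized counts in mTO-iTreg replicates 1 to 3, 88.5, 76.6 and 33.1 in TGFβ-iTreg replicates 1 to 3, and 588, 293 and 2463 in day 0 replicates 1 to 3. The mTO-iTreg libraries all lay above the TGFβ-iTreg libraries and overlapped only the lowest day 0 library. The log2 change was 2.00 ± 0.58 for mTO-iTreg over TGFβ-iTreg cells, and 1.57 without TGFβ-iTreg replicate 3. Against day 0 it was -3.60 ± 0.58 in TGFβ-iTreg cells and -2.75 without day 0 replicate 3. Against day 0 it was -1.61 ± 0.58 in mTO-iTreg cells and -0.75 without day 0 replicate 3.

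H2-Aa, the α chain that pairs with H2-Ab1 (chr17:34282744-34287823, minus strand), had 190, 56.5 and 32.5 normalized counts in mTO-iTreg replicates 1 to 3, 93.5, 113 and 32.1 in TGFβ-iTreg replicates 1 to 3, and 453, 199 and 1984 in day 0 replicates 1 to 3. The induced groups overlapped, and every day 0 library lay above every induced library. The log2 change of mTO-iTreg over TGFβ-iTreg cells was 0.01 ± 0.76 and changed sign in 5 of 20 alternatives, with a range of -0.69 to 0.56. Against day 0 it was -2.98 ± 0.76 in mTO-iTreg cells, and -2.07 without day 0 replicate 3. In TGFβ-iTreg cells it was -2.99 ± 0.76, with -2.09 without day 0 replicate 3 and -2.44 without TGFβ-iTreg replicate 3.

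Cd74, the invariant chain, had 194, 150 and 122 normalized counts in mTO-iTreg replicates 1 to 3, 108, 122 and 78.1 in TGFβ-iTreg replicates 1 to 3, and 184, 121 and 869 in day 0 replicates 1 to 3. Both induced groups overlapped the day 0 group, and day 0 replicate 3 alone stood clear. Each mTO-iTreg library lay above each TGFβ-iTreg library, but the lowest of the one and the highest of the other, 122 normalized counts in each, differed by less than the worth of 1 count. The log2 change was 0.59 ± 0.53 for mTO-iTreg over TGFβ-iTreg cells, -0.81 ± 0.53 for mTO-iTreg over day 0 cells and -1.40 ± 0.53 for TGFβ-iTreg over day 0 cells. Without day 0 replicate 3 the values against day 0 were 0.03 in mTO-iTreg cells and -0.56 in TGFβ-iTreg cells. Without day 0 replicate 2 they were -1.38 in mTO-iTreg cells and -1.98 in TGFβ-iTreg cells.

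H2-DMa, the α chain of the peptide exchanger H2-DM (chr17:34119541-34139101, plus strand), had 702, 775 and 683 normalized counts in mTO-iTreg replicates 1 to 3, 332, 252 and 170 in TGFβ-iTreg replicates 1 to 3, and 77.2, 86.0 and 88.6 in day 0 replicates 1 to 3. No groups overlapped: the mTO-iTreg libraries were highest and the day 0 libraries lowest, and day 0 replicate 3 lay beside its group. The log2 change was 1.56 ± 0.23 for mTO-iTreg over TGFβ-iTreg cells, 3.09 ± 0.23 for mTO-iTreg over day 0 cells and 1.52 ± 0.23 for TGFβ-iTreg over day 0 cells. Without day 0 replicate 3 the values against day 0 were 3.13 in mTO-iTreg cells and 1.56 in TGFβ-iTreg cells. H2-DMa overlaps Brd2, a gene on the other strand with its own row. Brd2, a bromodomain protein that binds acetylated histones, did not follow it: Brd2 fell by 0.52 on the log2 scale in mTO-iTreg relative to day 0 cells (adjusted p = 0.018, and up to 0.13 over the alternatives). That call ended with library totals made equal (adjusted p = 0.13), without mTO-iTreg replicate 1, or without day 0 replicate 1 or 2. It also ended without TGFβ-iTreg replicate 1 and day 0 replicate 2 together.

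H2-DMb1, the β chain of H2-DM (chr17:34153072-34160230, plus strand), had 93.4, 97.4 and 74.4 normalized counts in mTO-iTreg replicates 1 to 3, 4.92, 13.6 and 5.43 in TGFβ-iTreg replicates 1 to 3, and 3.51, 2.69 and 52.7 in day 0 replicates 1 to 3. The mTO-iTreg libraries lay above all others. The low values rest on few reads: 2, 20 and 11 counts in the TGFβ-iTreg replicates and 2, 1 and 50 in the day 0 replicates. The log2 change was 3.43 ± 0.87 for mTO-iTreg over TGFβ-iTreg cells and 3.20 ± 0.87 for mTO-iTreg over day 0 cells, or 4.44 without day 0 replicate 3. For TGFβ-iTreg over day 0 cells it was -0.23 ± 0.87, and 1.01 without day 0 replicate 3. The transcript of H2-DMb1 was 87.7% identical to that of its neighbour H2-DMb2 over 1144 aligned columns. In the last 500 bases, nearest to what the method reads, 161 columns aligned, with 91.9% identity. The split of reads between the pair is therefore uncertain.

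Ciita, the coactivator of the whole set, was read too rarely to be fitted. It had 7, 9 and 0 counts in mTO-iTreg replicates 1 to 3, 1, 6 and 8 in TGFβ-iTreg replicates 1 to 3, and 2, 1 and 24 in day 0 replicates 1 to 3. In normalized counts these were 4.77, 5.58 and 0 in mTO-iTreg cells, 2.46, 4.07 and 3.95 in TGFβ-iTreg cells, and 3.51, 2.69 and 25.3 in day 0 cells. The groups overlapped, and only day 0 replicate 3 stood clear. A difference between mTO-iTreg and TGFβ-iTreg cells was not detectable at this depth. Ciita also overlaps Dexi on the other strand.

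Ratios between genes within a library do not depend on how the library was scaled. They compare libraries only, since counts of different genes are not set per length here. H2-Eb1 over H2-Aa was 12.3, 25.0 and 55.8 in mTO-iTreg replicates 1 to 3, 0.447, 1.23 and 1.66 in TGFβ-iTreg replicates 1 to 3, and 0.760, 0.878 and 1.00 in day 0 replicates 1 to 3. Day 0 replicate 3, which held more of both, had the same proportion as the other day 0 libraries within a narrow range. The day 0 range lay inside that of the TGFβ-iTreg libraries, and the mTO-iTreg libraries lay far above both. H2-Eb1 over Cd74 was 9.39 to 14.9 in mTO-iTreg libraries, 0.386 to 1.14 in TGFβ-iTreg libraries and 1.44 to 2.28 in day 0 libraries, with no overlap between groups. H2-DMa over Cd74 was 3.61 to 5.59 in mTO-iTreg libraries, 2.07 to 3.07 in TGFβ-iTreg libraries and 0.102 to 0.711 in day 0 libraries, with the lowest value in day 0 replicate 3. H2-Aa over Cd74 was 0.266 to 0.975 in mTO-iTreg libraries, 0.411 to 0.928 in TGFβ-iTreg libraries and 1.64 to 2.46 in day 0 libraries. The induced groups overlapped in this ratio and lay below day 0.

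**Figure D2:**
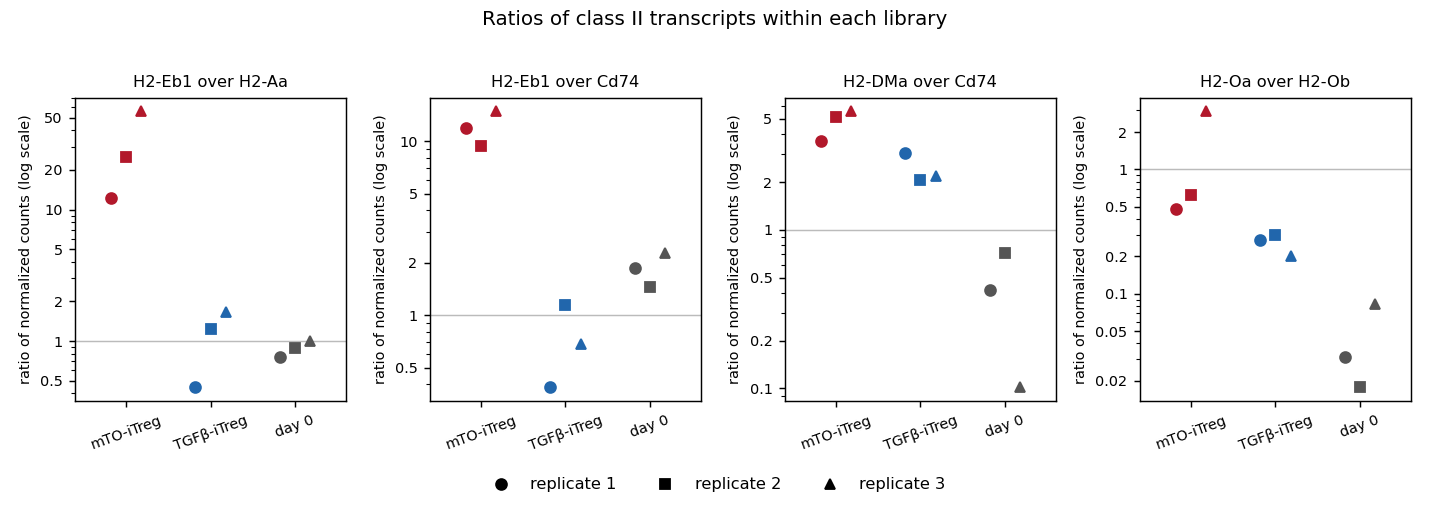
Ratios of normalized counts of 2 genes within each library (log scale); each point is 1 library, its shape the replicate number, and the grey line marks a ratio of 1. H2-Eb1 over H2-Aa was 12.3 to 55.8 in mTO-iTreg libraries, 0.447 to 1.66 in TGFβ-iTreg libraries and 0.760 to 1.00 in day 0 libraries.

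The other class II chains in the table, H2-Oa, H2-Ob, H2-DMb2 and H2-Eb2, were tested as genes outside the chosen set. Of these 4, 3 rose in mTO-iTreg relative to TGFβ-iTreg cells and 0 fell, where 14.9% of all rows tested were called higher and 11.8% lower. The median log2 change was 2.50 against 0.13 for all rows, and 2 of the 3 calls held in all alternatives. These genes, too, were listed with earlier results known. H2-Oa, the α chain of the H2-DM inhibitor H2-O (chr17:34092340-34095234), had 343, 345 and 411 normalized counts in mTO-iTreg replicates 1 to 3, 29.5, 39.3 and 15.8 in TGFβ-iTreg replicates 1 to 3, and 10.5, 5.38 and 32.7 in day 0 replicates 1 to 3. The mTO-iTreg libraries lay far above all others. Its rise was 3.74 ± 0.55 over TGFβ-iTreg cells (adjusted p = 0.00025) and 4.76 ± 0.55 over day 0 cells (adjusted p = 2.2e-05), both held in all alternatives. An antisense gene with its own row, BC051537, overlaps H2-Oa.

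H2-Ob, the β chain of H2-O (chr17:34238903-34254414), had 718, 553 and 140 normalized counts in mTO-iTreg replicates 1 to 3, 108, 132 and 78.6 in TGFβ-iTreg replicates 1 to 3, and 337, 301 and 392 in day 0 replicates 1 to 3. It rose by 1.87 ± 0.45 in mTO-iTreg relative to TGFβ-iTreg cells (adjusted p = 0.0076). In TGFβ-iTreg relative to day 0 cells it fell by 1.71 ± 0.45 on the log2 scale (adjusted p = 0.018). That call ended without TGFβ-iTreg replicate 3 (adjusted p = 0.068) or without day 0 replicate 3 (adjusted p = 0.052). It also ended with limma-voom on recovered counts (0.069) and without TGFβ-iTreg replicate 1 and day 0 replicate 2 together (0.066). The alternatives spanned 0.00028 to 0.069. The H2-O chains did not keep 1 proportion. H2-Oa over H2-Ob was 0.478, 0.624 and 2.93 in mTO-iTreg replicates 1 to 3, 0.273, 0.297 and 0.201 in TGFβ-iTreg replicates 1 to 3, and 0.0312, 0.0179 and 0.0833 in day 0 replicates 1 to 3, with no overlap between groups.

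H2-DMb2, an alternative β chain of H2-DM, had 17.1, 14.9 and 12.0 normalized counts in mTO-iTreg replicates 1 to 3, 0, 2.71 and 0.494 in TGFβ-iTreg replicates 1 to 3, and 0, 0 and 6.33 in day 0 replicates 1 to 3. It was called higher in mTO-iTreg cells against both groups (adjusted p = 0.033 in each), and both calls ended when any 1 mTO-iTreg replicate was left out, with adjusted p up to 0.12 against TGFβ-iTreg and 0.11 against day 0. The first also ended without TGFβ-iTreg replicate 1 (adjusted p = 0.1) or 3 (adjusted p = 0.091), and the other without day 0 replicate 1 or 2 (adjusted p = 0.1 in each). Both ended without TGFβ-iTreg replicate 1 and day 0 replicate 2 together (0.081 and 0.087). A pseudocount of 0.5 ended the first, and quantile normalization (0.069) or limma-voom on recovered counts (0.067) the other. H2-Eb2, a paralogue of H2-Eb1, had 20.5, 32.3 and 21.9 normalized counts in mTO-iTreg replicates 1 to 3, 4.92, 35.9 and 5.93 in TGFβ-iTreg replicates 1 to 3, and 21.1, 2.69 and 54.9 in day 0 replicates 1 to 3. Its groups overlapped, and the log2 change of mTO-iTreg over TGFβ-iTreg cells was 1.14 ± 0.94 (adjusted p = 0.40). The H2-Eb1 and H2-Eb2 transcripts were 78.6% identical over 784 aligned columns. In their last 500 bases, nearest to what the method reads, only 14 columns aligned. The I-E α gene was looked for under the symbols H2-Ea and H2-Ea-ps and had no row, so its RNA could not be read here.

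Most of the members lie together on chromosome 17 beside the class I peptide transporters and immunoproteasome genes. Of the 14 genes with a row between H2-Oa and H2-Eb2, 5 are members. Of the other 9, which include the 4 class II chains above, 4 were called higher and 1 lower in mTO-iTreg relative to TGFβ-iTreg cells, with 3 and 1 held in all alternatives, where 14.9% of all rows were called higher and 11.8% lower. In mTO-iTreg relative to day 0 cells 5 were called higher and 2 lower, with 3 and 0 held, where the shares of all rows were 19.4% and 14.5%. In TGFβ-iTreg relative to day 0 cells 1 was called higher and 1 lower, with 0 held in either direction, where the shares were 9.78% and 8.8%. The neighbours that carry peptide for class I differed in direction: Tap1, a transporter subunit, rose by 1.12 ± 0.18 in mTO-iTreg relative to TGFβ-iTreg cells (adjusted p = 0.0006), while Tap2, its partner, fell by 1.08 ± 0.22 on the log2 scale (adjusted p = 0.0027). Tap1 also rose by 1.62 ± 0.18 over day 0 cells (adjusted p = 2e-05). Psmb8, an immunoproteasome subunit, rose by 0.77 ± 0.16 in mTO-iTreg relative to day 0 cells (adjusted p = 0.0021).

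**Figure D3:**
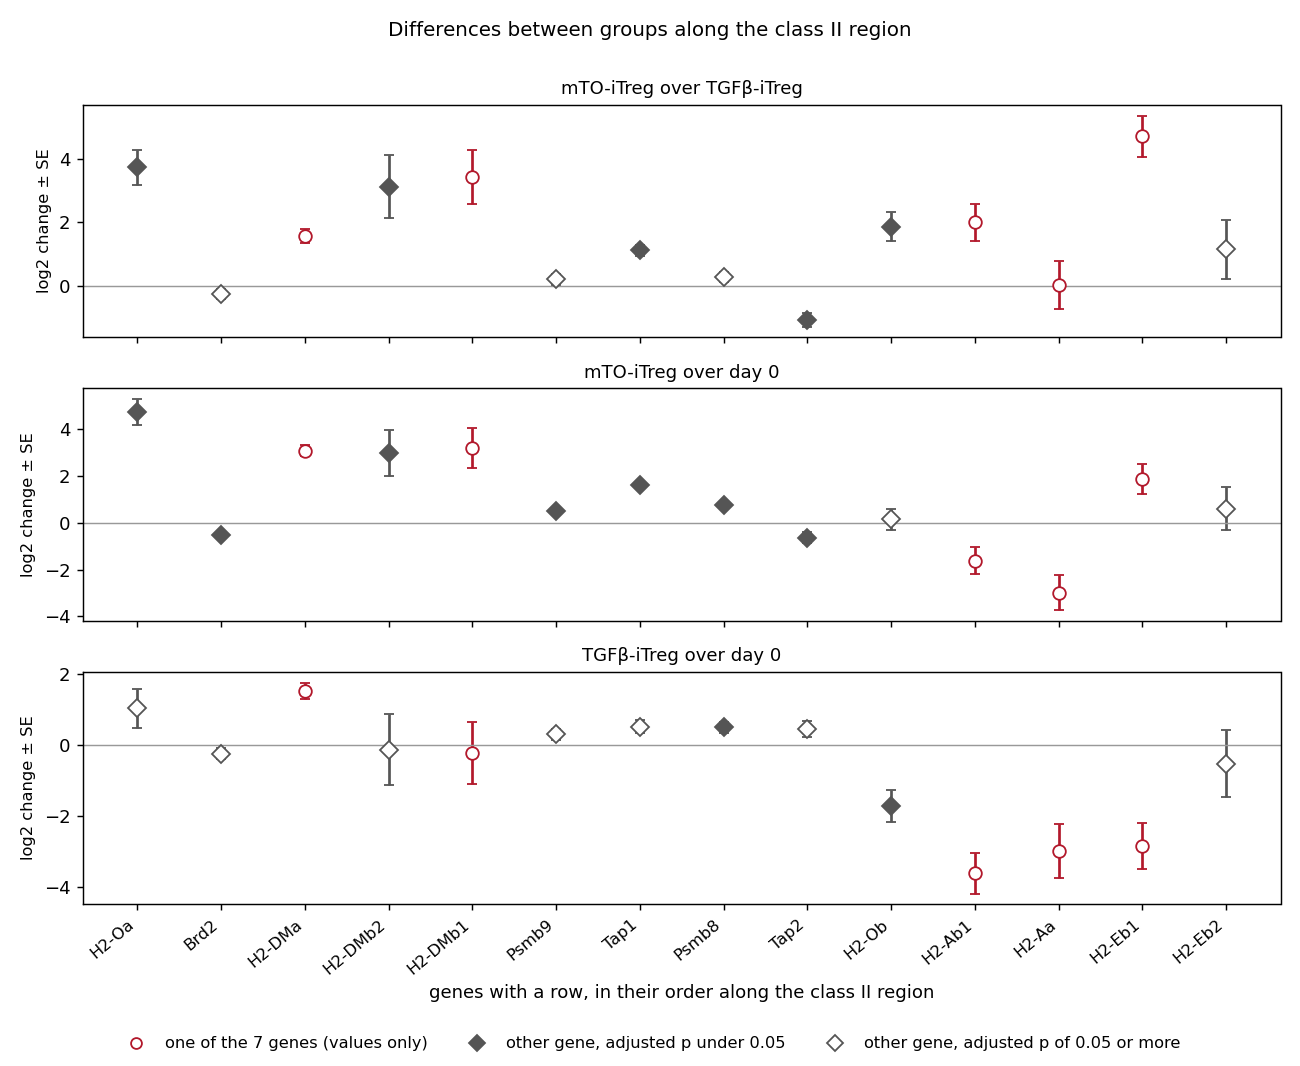
Fitted log2 changes with their SE for the 14 genes with a row in the class II region, in gene order, for each comparison; circles are the chosen genes, given as values only, and filled diamonds are other genes with an adjusted p under 0.05. H2-Eb1 (4.72) and H2-Oa (3.74) stood highest in mTO-iTreg over TGFβ-iTreg cells, while H2-Aa (0.01) between them lay at 0.

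Factors that bind class II promoters were tested next, as a list of 7 genes. In mTO-iTreg relative to TGFβ-iTreg cells 1 rose and 1 fell, where 14.9% of all rows tested were called higher and 11.8% lower. In mTO-iTreg relative to day 0 cells 1 rose and 0 fell, where the shares were 19.4% and 14.5%. In TGFβ-iTreg relative to day 0 cells limma called 0 in either direction, where the shares were 9.78% and 8.8%. There, 1 had an unadjusted p under 0.05 and 1 was called by limma-voom. These counts were near the shares of all rows, and nothing is read from them. Nfyb, a histone-fold subunit of NF-Y, had 637, 491 and 555 normalized counts in mTO-iTreg replicates 1 to 3, 322, 216 and 225 in TGFβ-iTreg replicates 1 to 3, and 328, 333 and 260 in day 0 replicates 1 to 3. It rose by 1.15 ± 0.20 over TGFβ-iTreg cells (adjusted p = 0.00083) and by 0.87 ± 0.20 over day 0 cells (adjusted p = 0.004), both held in all alternatives. Nfyc, its histone-fold partner, was called lower in mTO-iTreg relative to TGFβ-iTreg cells (-1.03 ± 0.34, adjusted p = 0.039). The call of Nfyc ended without mTO-iTreg replicate 1 (adjusted p = 0.11) or 3 (0.16), and without TGFβ-iTreg replicate 1 (0.1), 2 (0.068) or 3 (0.083). It also ended with no filter (0.055) and without TGFβ-iTreg replicate 1 and day 0 replicate 2 together (0.086). The RFX subunits Rfx5, Rfxap and Rfxank, with log2 changes of 0.56 ± 0.22, -0.28 ± 0.27 and -0.22 ± 0.38 between the induced groups, did not pass the test (adjusted p = 0.078, 0.48 and 0.71).

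The interferon-γ route, by which the cytokine's receptor, JAK kinases and IRF1 act to induce Ciita in many cells, was counted over 6 genes. In mTO-iTreg relative to TGFβ-iTreg cells 3 rose, 2 of them in all alternatives, and the other 3 did not pass the test. Of all rows tested, 14.9% were called higher and 11.8% lower in that comparison. Ifngr2, the signalling chain of the receptor, averaged 770 ± 202 normalized counts in mTO-iTreg cells, 181 ± 62.1 in TGFβ-iTreg cells and 277 ± 37.2 in day 0 cells (SD, n = 3 each). It rose by 2.11 ± 0.25 over TGFβ-iTreg cells (adjusted p = 4.1e-05) and by 1.45 ± 0.25 over day 0 cells (adjusted p = 0.0005). Jak2, the kinase on that chain, rose by 1.07 ± 0.18 over TGFβ-iTreg cells (adjusted p = 0.00074).

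Against day 0, the list had 4 genes higher and 1 lower in mTO-iTreg cells, with 3 and 1 held in all alternatives. In TGFβ-iTreg cells 2 were higher and 1 lower, with 1 and 1 held. The shares of all rows called higher and lower were 19.4% and 14.5% in mTO-iTreg cells and 9.78% and 8.8% in TGFβ-iTreg cells. Ifngr1, the ligand-binding chain, rose by 2.25 ± 0.20 in mTO-iTreg cells (adjusted p = 3.2e-06) and by 1.64 ± 0.20 in TGFβ-iTreg cells (adjusted p = 0.00013). Jak1, the kinase on the ligand-binding chain, fell by 0.69 ± 0.11 in mTO-iTreg cells (adjusted p = 0.00032) and by 0.63 ± 0.11 in TGFβ-iTreg cells (adjusted p = 0.0015) on the log2 scale. The receptor chains and kinases of the route were thus divided in direction.

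Endosomal proteases and helpers, which cut the invariant chain and antigens, were a list of 11 genes. In mTO-iTreg relative to TGFβ-iTreg cells 1 rose and 2 fell, and all 3 calls held in all alternatives. Of all rows tested, 14.9% were called higher and 11.8% lower, and nothing is read from these counts. Ifi30, the thiol reductase GILT that unfolds antigens, had 338, 331 and 260 normalized counts in mTO-iTreg replicates 1 to 3, 41.8, 106 and 84.0 in TGFβ-iTreg replicates 1 to 3, and 161, 237 and 231 in day 0 replicates 1 to 3. It rose by 2.08 ± 0.31 over TGFβ-iTreg cells (adjusted p = 0.00031), in which it was lower than on day 0 (-1.51 ± 0.31, adjusted p = 0.0047). Ctss, the protease cathepsin S that trims the invariant chain, had 731, 713 and 616 normalized counts in mTO-iTreg replicates 1 to 3, 1992, 1773 and 2083 in TGFβ-iTreg replicates 1 to 3, and 1221, 1269 and 1538 in day 0 replicates 1 to 3. It fell by 1.50 ± 0.13 relative to TGFβ-iTreg cells (adjusted p = 5.4e-06) and by 0.96 ± 0.13 relative to day 0 cells (adjusted p = 0.00011) on the log2 scale. Ctss thus moved against H2-DMa and H2-Eb1 between the induced groups.

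Sppl2a, the membrane protease that clears the last stub of the invariant chain, fell by 0.91 ± 0.21 on the log2 scale in mTO-iTreg relative to TGFβ-iTreg cells (adjusted p = 0.0053) and by 1.65 ± 0.21 relative to day 0 cells (adjusted p = 4.7e-05). Ctsl, cathepsin L, rose by 2.04 ± 0.33 in mTO-iTreg cells (adjusted p = 0.00032) and by 1.89 ± 0.33 in TGFβ-iTreg cells (adjusted p = 0.0014) relative to day 0 cells. The list as a whole had 3 genes higher and 4 lower in mTO-iTreg relative to day 0 cells, with 1 and 3 held in all alternatives. The shares of all rows there were 19.4% and 14.5%. In TGFβ-iTreg relative to day 0 cells 2 were higher and 3 lower, with 1 and 1 held, where the shares were 9.78% and 8.8%.

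Cd83, which keeps class II at the surface by blocking its ubiquitination, had 172, 86.8 and 151 normalized counts in mTO-iTreg replicates 1 to 3, 17.2, 29.2 and 18.8 in TGFβ-iTreg replicates 1 to 3, and 17.5, 21.5 and 15.8 in day 0 replicates 1 to 3. It rose by 2.58 ± 0.43 over TGFβ-iTreg cells (adjusted p = 0.00074) and by 2.79 ± 0.43 over day 0 cells (adjusted p = 0.00027). Costimulatory ligands, which antigen-presenting cells show beside class II, had 7 of 8 genes fitted, with 1 call in each comparison and 0 that held in all alternatives. Of all rows, 26.6% were called in either direction between the induced groups. Against day 0 the share was 33.9% in mTO-iTreg cells and 18.6% in TGFβ-iTreg cells. Cd80 had 9.55, 8.06 and 9.30 normalized counts in mTO-iTreg replicates 1 to 3, 22.1, 9.49 and 56.8 in TGFβ-iTreg replicates 1 to 3, and 3.51, 0 and 13.7 in day 0 replicates 1 to 3. Cd86 had 6.14, 9.93 and 9.30 in mTO-iTreg replicates 1 to 3, 0, 7.46 and 9.88 in TGFβ-iTreg replicates 1 to 3, and 28.1, 16.1 and 26.4 in day 0 replicates 1 to 3. Neither of these ligands of CD28 passed the test between the induced groups, with log2 changes of -1.28 ± 0.95 for Cd80 (adjusted p = 0.34) and 1.04 ± 0.87 for Cd86 (adjusted p = 0.40). Cd4, the T cell coreceptor that binds class II, rose by 1.70 ± 0.13 in mTO-iTreg relative to TGFβ-iTreg cells (adjusted p = 1.6e-06).

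**Figure D4:**
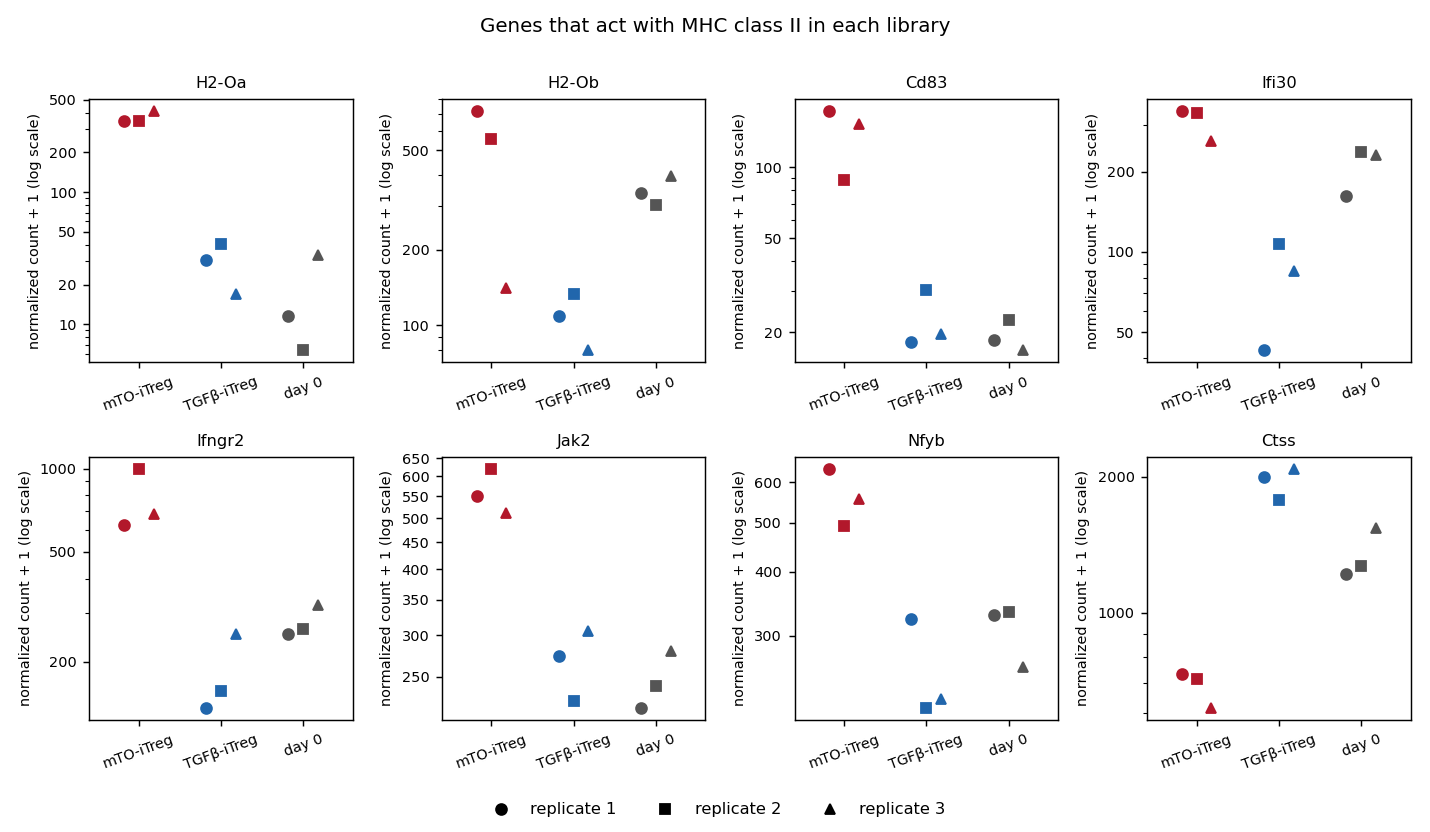
Normalized counts plus 1 (log scale) of genes that act with class II, in each library; each point is 1 library and its shape the replicate number. H2-Oa, Cd83, Ifngr2, Jak2 and Nfyb were higher in all mTO-iTreg libraries than in any TGFβ-iTreg library, while Ctss was lower in all of them.

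Marker lists of cells that usually carry class II were set beside these results. The 10 T cell markers summed to 21427 to 25518 normalized counts in mTO-iTreg libraries, 22368 to 25719 in TGFβ-iTreg libraries and 32691 to 35904 in day 0 libraries. T cell transcripts were thus abundant in every library and lower in the induced groups than on day 0. These sums do not measure the share of other cells. Of 12 dendritic cell markers with a row, the sum was 535 to 626 normalized counts in mTO-iTreg libraries, 670 to 856 in TGFβ-iTreg libraries and 514 to 977 in day 0 libraries. Most of it was Cst3, cystatin C, which many cells make, with 462 to 610 normalized counts in mTO-iTreg libraries. The defining markers Itgax, Flt3 and Clec9a had 0 counts in all 3 mTO-iTreg libraries, as did Plbd1 and Wdfy4. A count of 0 allows up to 3 counts a library, or 2.05, 1.86 and 1.99 normalized counts in mTO-iTreg replicates 1 to 3, by counting error only. Zbtb46, a factor of conventional dendritic cells, had 18.4, 13.6 and 4.65 normalized counts in mTO-iTreg replicates 1 to 3, 0, 0.678 and 1.48 in TGFβ-iTreg replicates 1 to 3 and 0 in all 3 day 0 libraries.

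In day 0 replicate 3 the dendritic list was different. Plbd1 had 78.1 normalized counts there against 3.51 and 5.38 in day 0 replicates 1 and 2, and Flt3 had 48.5 against 1.75 and 21.5. Of 10 dendritic markers with a day 0 value, 7 were highest in that library. The 12 B cell markers with a row summed to 193, 104 and 89.0 normalized counts in mTO-iTreg replicates 1 to 3, 68.9, 111 and 61.8 in TGFβ-iTreg replicates 1 to 3, and 104, 72.6 and 177 in day 0 replicates 1 to 3. Of 11 with a day 0 value, 8 were highest in day 0 replicate 3. That library was the deepest of the day 0 group, and the share of all rows highest in it is not given here. Nothing is therefore read from these counts of markers. Cd79b, a chain of the B cell receptor, had 73.0, 58.9 and 48.5 normalized counts in mTO-iTreg replicates 1 to 3, 9.84, 14.9 and 4.45 in TGFβ-iTreg replicates 1 to 3, and 3.51, 0 and 7.38 in day 0 replicates 1 to 3, and rose in mTO-iTreg cells over day 0 cells (4.17 ± 0.80, adjusted p = 0.0012). It was also called higher in mTO-iTreg than in TGFβ-iTreg cells (2.62 ± 0.80, adjusted p = 0.027), a call that ended in 7 of 20 alternatives: without any 1 mTO-iTreg replicate, without TGFβ-iTreg replicate 1 or 3, with a pseudocount of 0.5 and with no filter (adjusted p up to 0.1). Its partner chain Cd79a had 28.6, 16.1 and 11.3 in mTO-iTreg replicates 1 to 3, 39.4, 40.7 and 24.7 in TGFβ-iTreg replicates 1 to 3, and 5.26, 10.8 and 26.4 in day 0 replicates 1 to 3. The chains did not move together. The part of B cells in the class II values was not tested.

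The 10 monocyte and macrophage markers with a row summed to 73.0, 23.0 and 41.8 normalized counts in mTO-iTreg replicates 1 to 3, 49.2, 69.9 and 17.3 in TGFβ-iTreg replicates 1 to 3, and 200, 167 and 399 in day 0 replicates 1 to 3. No library of an induced group reached the day 0 range. Of 8 of these markers with a day 0 value, 2 were highest in day 0 replicate 3. The share of all rows highest in it is not given here, so nothing is read from this count. Fcer1g, an adaptor of Fc receptors, had 8.87, 0 and 0 normalized counts in mTO-iTreg replicates 1 to 3, 0, 6.10 and 0 in TGFβ-iTreg replicates 1 to 3, and 57.9, 61.8 and 230 in day 0 replicates 1 to 3. It fell in mTO-iTreg (-5.47 ± 1.09, adjusted p = 0.0016) and TGFβ-iTreg cells (-5.63 ± 1.09, adjusted p = 0.003) relative to day 0 cells. Of the 7 markers of this list that were fitted, 3 were called lower and 0 higher in each induced group relative to day 0. These were Fcer1g, Tyrobp and Cd300a, and the calls of Cd300a did not hold in all alternatives. The shares of all rows called lower were 14.5% in mTO-iTreg and 8.8% in TGFβ-iTreg cells. Of 5 fitted NK and CD8 markers, Klrd1 was called lower in both groups and Eomes higher in mTO-iTreg cells. The part of any of these cells in the H2-Aa and H2-Ab1 values was not tested. The 9 epithelial markers with a row, which the organoids would bring, summed to 34.1, 45.9 and 147 normalized counts in mTO-iTreg replicates 1 to 3, 152, 138 and 159 in TGFβ-iTreg replicates 1 to 3, and 15.8, 18.8 and 17.9 in day 0 replicates 1 to 3. The mTO-iTreg libraries lay within or below the range of the TGFβ-iTreg libraries, which were grown without organoids.

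**Figure D5:**
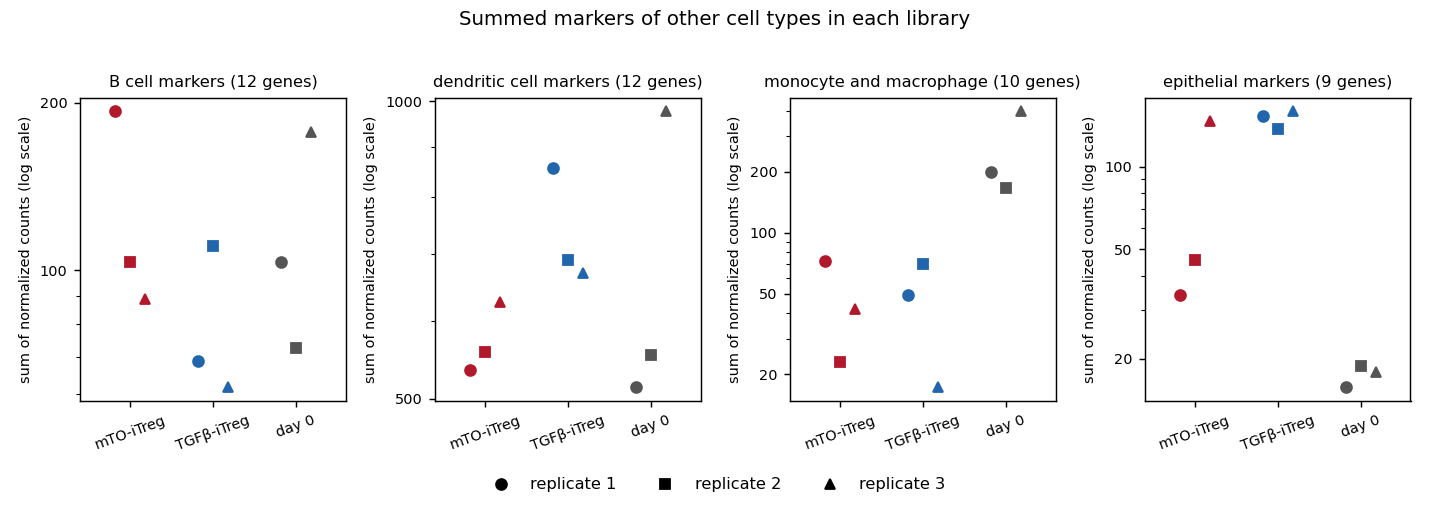
Summed normalized counts (log scale) of marker lists of other cell types in each library; each point is 1 library and its shape the replicate number. Summed markers of day 0 replicate 3 were highest of the day 0 libraries for B cells (177), dendritic cells (977) and monocytes and macrophages (399). Of 8 monocyte and macrophage markers with a day 0 value, 2 were highest in that library, and nothing is read from this count. The mTO-iTreg libraries lay below the TGFβ-iTreg libraries for dendritic markers and within or below their range for epithelial markers.

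The genes whose levels ran most like the mean of the 7 members were named as a description, by Pearson's r of log2 values over the 9 libraries. The closest were Klf7, a transcription factor (r = 0.93), Zfp346, a zinc finger protein (r = 0.91), and Hdhd2 (r = 0.91). Klf7 had 110, 108 and 134 normalized counts in mTO-iTreg replicates 1 to 3, 54.1, 67.1 and 50.4 in TGFβ-iTreg replicates 1 to 3, and 89.5, 78.0 and 180 in day 0 replicates 1 to 3. Cd44, the adhesion receptor of activated and memory T cells, was among the 8 closest (r = 0.88). These values share the library scaling and the high day 0 replicate 3.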

How the data were processed

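Bulk RNA of 9 CD4+ T cell libraries was analysed from 1 table. Per the submitters' processing notes, the authors aligned reads with BWA to mm10 and normalized with DESeq2; their versions are unknown here. The deposited values are normalized counts (a count over a size factor of its library). Once divided by what 1 count is worth, 100% of them were whole to within 0.1, and these recovered counts were summed to the depths. Rows with at least 5 in at least 3 libraries (10983 of 14912) were fitted with limma 3.58.1 in R 4.3.3 on log2(value + 1), with 3 group means, a variance trend and Benjamini-Hochberg adjustment over all rows at 0.05. Fold changes on this scale understate low genes. Replicate numbers were not used to pair libraries in the main fit. Deviations from the group means had r of -0.05 to 0.06 between libraries of the same number (9 pairs). With so few libraries a group, this cannot show whether they shared an animal or culture.

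The members and all gene lists were chosen with earlier results of these data known. Genes named were the members, up to 4 called genes a list and comparison, the highest markers, and the 8 most alike genes with a mean of at least 20; Zbtb46, Cd79a, Cd80, Cd86, the RFX subunits, H2-Eb2, Xist and the defining dendritic markers were named after their values were seen. A gene of the interferon-γ route is not reported here and was left out of that list's counts. Positions and transcripts are from GENCODE M21 (GRCm38), and identity was computed with Biopython 1.88.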

Additional observations from a re-analysis of the deposited data

How the results depend on the processing

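The counts of called rows, 2040 for TGFβ-iTreg over day 0, 3723 for mTO-iTreg over day 0 and 2924 for mTO-iTreg over TGFβ-iTreg cells, stayed within 1.5 times under 20 alternatives each, with 1 exception: leaving out both the shallowest TGFβ-iTreg and day 0 libraries, chosen after seeing the data, gave 1166 for TGFβ-iTreg over day 0. A replicate block gave 1938, 3670 and 2838 in the same order. With equal totals, 75.4% of calls were higher in TGFβ-iTreg over day 0 cells, against 52.6%, and 70.4% in mTO-iTreg over day 0 cells, against 57.1%; the median of all rows moved to 0.22 and 0.31. Of 360 member values, 2 moved by more than the spread between replicates. Of 900 counts of calls among lists, 120 moved by over 1.5 times. Limma-voom on recovered counts was added after seeing the data in place of the quasi-likelihood and size-factor count tests that had been planned, which were not run. The rarely read genes, Ciita, H2-DMb2 and H2-DMb1 on day 0, are limited by depth.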
